A study of Mus musculus with 5 samples.

Results

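The genes described here are 35 mouse genes of DNA damage signalling and DNA repair, chosen by name from their known roles and not by their measured values. These genes, and the lists set beside them, were however chosen with earlier results of these data known. The members are 35 of the 18051 genes in the count table, and all 35 were among the 12046 genes that passed the filter on low counts. By role, 8 are damage signalling genes, 7 act in end joining, 8 in homologous recombination, 3 in the Fanconi pathway, 5 in base excision and single-strand break repair, 3 in nucleotide excision repair and 1 (Msh6) in mismatch repair. RNA was sequenced from 3 libraries of thymic dendritic cells (DCs) taken 4 days after total body irradiation (TBI) and from 2 libraries of thymic DCs of untreated mice. Both groups were C57BL/6J mice aged 6 to 8 weeks. In both, thymi were pooled and digested with DNase and collagenase II, and the cells were sorted as CD45+ and CD11c+ with MHC class II. The radiation dose is not given in the sources used here, and a treatment note names day 7 where the sample titles and tags give day 4. Each group is treated as replicate libraries of pooled thymi. Nothing in the labels says that the pools were of separate animals, so p-values measure the spread between these libraries, which may be technical.

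A cell that meets ionising radiation acquires broken DNA strands and damaged bases. The kinases ATM and ATR sense breaks and stalled forks and act through the kinases CHK2 and CHK1 and through p53. Broken ends are rejoined directly by non-homologous end joining, which works throughout the cell cycle, or are copied from the sister chromatid by homologous recombination, which is used in S and G2 phase. Excision repair cuts out damaged bases or bulky lesions, mismatch repair corrects replication errors, and the Fanconi pathway unhooks crosslinked strands. Much of this response is carried by protein modification, and RNA levels do not report on it.

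The 5 libraries held 7549053, 8428589 and 7940442 counts in TBI replicates 1, 2 and 3, against 7346330 and 7227000 counts in untreated replicates 1 and 2, so that 1 count was worth 0.124 to 0.145 CPM, the count scaled to library size. Of the 7 core DC markers, 5 were lower after TBI, among them Flt3 at 34.5 to 41.6 CPM in TBI libraries against 313 to 343 CPM in untreated libraries. Flt3 encodes a growth factor receptor of DCs, and the labelled cell type thus held little of this defining RNA after TBI. The sum of the 7 markers was 38258 to 54263 CPM in TBI and 55535 to 56468 CPM in untreated libraries. That sum came mostly from Cd74, H2-Ab1 and H2-Aa (means of 26114, 11948 and 5962 CPM in TBI libraries). These are genes of MHC class II, on which the cells were sorted. All 12 macrophage markers were higher, with sums of 50554 to 56136 CPM in TBI and 4800 to 5855 CPM in untreated libraries. The 7 natural killer cell markers, all higher, summed to 906 to 1101 CPM in TBI against 42.9 to 44.2 CPM in untreated libraries, and the 7 plasmacytoid DC markers, all lower, to 432 to 527 CPM in TBI against 3142 to 3243 CPM in untreated libraries. T cell and thymocyte markers (7 of 12 lower, 1 higher) summed to 1518 to 1604 CPM in TBI and 2771 to 3160 CPM in untreated libraries. Cd3d, Cd3e and Lck among them had log2 fold changes of 0.07, 0.00 and 0.04, and Cd3g was the 1 higher. Type 1 DC markers (6 of 7 lower) summed to 594 to 755 CPM in TBI and 2927 to 3076 CPM in untreated libraries. Type 2 DC markers (4 of 6 higher) summed to 2842 to 3418 CPM in TBI and 1059 to 1183 CPM in untreated libraries. Of these, Itgam had a mean of 1176 CPM in TBI and 136 CPM in untreated libraries. Irf4 did not pass the test and lay lower in every TBI library (mean 36.6 CPM, against 53.4 CPM). B cell markers (4 of 5 higher) summed to 244 to 381 CPM in TBI and 68.6 to 91.2 CPM in untreated libraries, with Pax5 at 0 in the untreated ones. Stromal, endothelial and epithelial markers (2 of 9 higher, 3 lower) summed to 79.6 to 101 CPM in TBI and 162 to 176 CPM in untreated libraries, with Pdgfra at 0 in all 5. In such bulk libraries fewer cells of a type and less RNA per cell cannot be told apart. The part of these shifts in the results on repair genes was not tested.

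Among the 35 genes, 4 passed the test. Xrcc5, a subunit of the Ku complex that caps broken ends, and Chek1, the kinase of the ATR branch, rose after TBI. Lig4, the ligase of end joining, and Fanca, a subunit of the Fanconi core complex, fell. The other 31 genes did not pass an adjusted p of 0.05 (edgeR's quasi-likelihood test, Benjamini-Hochberg over all tested genes). The 4 calls are 11.4% of the members, against 23.1% of all tested genes, of which 13.3% were higher and 9.79% lower after TBI. At an unadjusted p under 0.05 there were 7 members (20%) and 4300 of all tested genes (35.7%). The median log2 fold change of TBI over untreated was 0.03 over the members and -0.01 over all tested genes, and the median of its size was 0.39 and 0.42. In 15 members the TBI and untreated libraries did not overlap (5 with every TBI library above and 10 with every TBI library below), against 56.1% of all tested genes. Summed over the 35 genes, the level was 711, 746 and 821 CPM in the TBI libraries, against 793 and 825 CPM in the untreated libraries. These sums overlap between the groups.

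**Figure D1:**
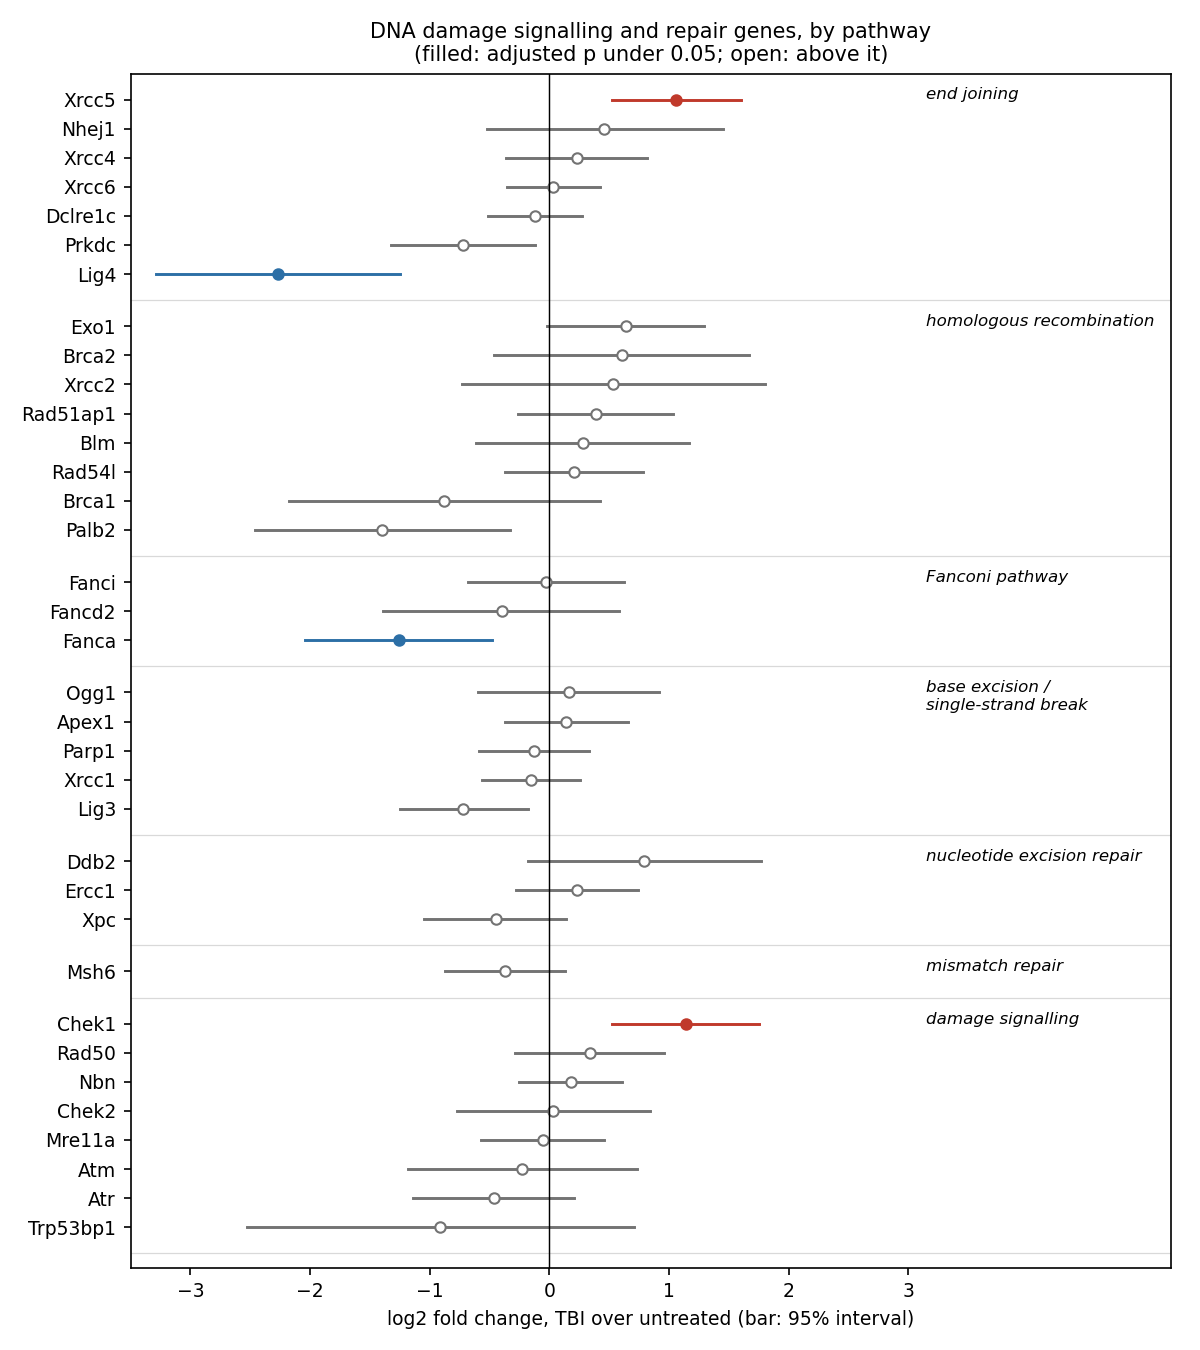
Log2 fold change of TBI over untreated for the 35 genes, grouped by repair pathway, with points for the estimate and bars for the 95% interval; filled points passed an adjusted p of 0.05. The 4 filled points are Xrcc5 and Chek1 to the right of 0 and Lig4 and Fanca to the left, and most other intervals include 0.

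Sequences at or near the starts of these 4 genes are shown because they are the members whose RNA differed. They are RefSeq sequences on build GRCm38.p6, written 5′ to 3′ on the strand of the gene, with the motif named for each gene in capitals. For Fanca (chr8:123318577-123318826, minus strand) the capitals are CCAAT boxes, elements bound by NF-Y, and for Xrcc5 (chr1:72307171-72307420, plus strand) they are a CCAAT box on the opposite strand, read as ATTGG. For Lig4 (chr8:9977744-9977773, minus strand) and Chek1 (chr9:36726609-36726638, minus strand) only 30 bases around a match to an E2F core (GCGCGAA or GCGGGAA) are printed.
Fanca: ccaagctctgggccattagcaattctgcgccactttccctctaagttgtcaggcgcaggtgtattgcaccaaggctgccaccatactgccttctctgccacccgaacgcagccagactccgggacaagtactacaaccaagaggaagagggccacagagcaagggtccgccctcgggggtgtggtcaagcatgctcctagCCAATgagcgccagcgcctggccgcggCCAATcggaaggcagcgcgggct
Xrcc5: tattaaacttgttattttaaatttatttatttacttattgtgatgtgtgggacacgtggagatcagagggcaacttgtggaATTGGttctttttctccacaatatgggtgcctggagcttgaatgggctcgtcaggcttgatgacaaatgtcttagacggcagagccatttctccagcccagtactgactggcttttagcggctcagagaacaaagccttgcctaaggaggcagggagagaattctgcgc
Lig4: ttcctcccgggaGCGCGAAgccaacctgtg
Chek1: cagcatgacgcaagcaggttttgGCGGGAA

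The Fanca boxes begin 50 and 23 bases before the gene's start, and the Xrcc5 box 169 bases before its start. The Lig4 E2F core begins 81 bases before its start, while the Chek1 E2F core lies 43 to 49 bases past its start. Starts are those of the promoter entries. For Chek1 that start lies inside the gene's GENCODE vM21 span, which begins at base 36727065 on the minus strand. Promoter windows of 300 bases, from 250 before to 50 after the start, were found for 27 members and were searched on both strands. An E2F core, either GCGGGAA or GCGCGAA, stood in 11 of them (40.7%), against 12.8% of the 9276 tested genes and 6.86% of all 27025 genes with a window. CCAAT was in 16 members (59.3%), against 42.8% of tested genes and 41.1% of all genes. TTTGAA, the cell cycle homology element, was in 0 of 27, against 14.5% of tested genes and 20.2% of all genes, and the p53 decamer in 1 (Fanca), against 8.18% and 9.55%. The Fanca p53 match is left in lower case above and does not overlap the capitals. The 11 members with an E2F core had a median log2 fold change of 0.03 and included 2 of the called genes (Lig4, lower, and Chek1, higher), and the 16 without had a median of -0.12 and included the other 2. Nbn, Rad50, Prkdc, Xrcc2, Exo1, Fancd2, Xpc and Ddb2 had no entry in the promoter table.

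Among the repair classes, end joining held both the highest (Xrcc5) and the lowest (Lig4) log2 fold change, and 1 of its 7 members rose and 1 fell. Lig4 seals the ends that the other factors align. Its level was 4.63, 2.92 and 1.44 CPM in TBI replicates 1, 2 and 3, against 16.2 and 12.7 CPM in untreated replicates 1 and 2. These values came from 32, 23 and 11 counts in TBI libraries and 131 and 100 counts in untreated libraries. Every TBI library lay under every untreated one. The mean was 2.995 ± 1.597 CPM (SD, n = 3) after TBI and 14.4 ± 2.495 CPM (SD, n = 2) in untreated cells, a log2 fold change of -2.27 ± 0.45 (SE, 95% interval -3.29 to -1.25, edgeR adjusted p = 0.0074). Without untreated replicate 1 the call was lost (log2 fold change -2.08, edgeR adjusted p = 0.085).

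Xrcc5 (Ku80) went the other way. It had 17.9, 22.7 and 19.2 CPM in TBI libraries, against 9.51 and 9.62 CPM in untreated libraries, and the groups did not overlap. Its log2 fold change was 1.06 ± 0.24 (SE, 95% interval 0.52 to 1.6, edgeR adjusted p = 0.0138). The call rested on both untreated libraries, with an adjusted p of 0.141 without untreated replicate 1 and 0.139 without untreated replicate 2. Xrcc6 (Ku70), the obligate partner of Ku80, had 101, 75.5 and 97.3 CPM in TBI libraries, against 85.5 and 92.4 CPM in untreated libraries. Its groups overlapped, with a log2 fold change of 0.03 ± 0.17 (SE, 95% interval -0.35 to 0.42, edgeR adjusted p = 0.905). Per kilobase of exon, Xrcc6 was the higher of the Ku genes in both groups, at 27.5 CPM per kb in TBI and 26.8 CPM per kb in untreated libraries, while Xrcc5 was at 7.81 CPM per kb in TBI and 3.75 CPM per kb in untreated libraries.

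Prkdc, the DNA-dependent kinase that Ku recruits, had 7.24, 10.01 and 8.89 CPM in TBI libraries, against 14.8 and 13.9 CPM in untreated libraries. The groups did not overlap, but the log2 fold change of -0.72 ± 0.26 (SE) did not pass the test (edgeR adjusted p = 0.0842). Dclre1c encodes Artemis, the nuclease that opens hairpin ends, and had 40.5, 37.9 and 41.7 CPM in TBI libraries, against 42.4 and 44.7 CPM in untreated libraries (log2 fold change -0.12 ± 0.17, SE). Xrcc4, the scaffold that holds LIG4, and Nhej1 (XLF), its relative, overlapped between the groups, with log2 fold changes of 0.23 ± 0.26 and 0.46 ± 0.43 (SE). For Xrcc4 the libraries held 13.5, 15.8 and 11.3 CPM after TBI, against 11.1 and 11.9 CPM in untreated cells. The difference between the changes of Lig4 and of its partner Xrcc4 was not tested.

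Of 10 other end joining genes, 1 passed the test and was lower. Dntt, the template-independent polymerase that adds bases at V(D)J joints and marks lymphoid precursors, had 143, 149 and 142 CPM in TBI libraries, against 239 and 249 CPM in untreated libraries (log2 fold change -0.75 ± 0.12, SE, edgeR adjusted p = 0.00272). Its call was lost without untreated replicate 2 (adjusted p = 0.0614). T cell and thymocyte markers, which include other lymphoid precursor genes, were lower in 7 of 12 genes and higher in 1 (Cd3g). Cd3d, Cd3e, Lck and Ptcra did not pass the test. The 7 plasmacytoid DC markers were all lower in the same libraries. The part of these shifts in the Dntt value was not tested.

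Homologous recombination held 0 called genes among its 8 members by edgeR, with 1 at an unadjusted p under 0.05 (Palb2). DESeq2 and limma-voom each called 1 (Palb2). PALB2 links BRCA1 to BRCA2, and Palb2 had 6.66, 2.66 and 2.62 CPM in TBI libraries, against 11.7 and 9.11 CPM in untreated libraries. The groups did not overlap, and the log2 fold change was -1.40 ± 0.46 (SE, 95% interval -2.46 to -0.33, edgeR adjusted p = 0.0639). Without TBI replicate 1, the highest of the TBI libraries for this gene, it passed (log2 fold change -1.98, edgeR adjusted p = 0.00296).

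Brca1, the scaffold that starts resection, was spread widely within the TBI group. It had 1.88, 10.7 and 5.10 CPM in TBI libraries, against 10.5 and 11.3 CPM in untreated libraries, from 13, 84 and 39 counts in TBI libraries and 85 and 89 counts in untreated libraries. TBI replicate 2 lay among the untreated values and TBI replicate 1 far under them. The log2 fold change was -0.88 ± 0.57 (SE, edgeR adjusted p = 0.309), and it was -0.46 without TBI replicate 1 and -1.63 without TBI replicate 2. Brca2, which prepares the resected strand for exchange, had 6.22, 4.06 and 10.3 CPM in TBI libraries, against 3.95 and 5.06 CPM in untreated libraries, and the groups overlapped. Per kilobase of exon, Brca2 was the lowest of the 35 genes in untreated libraries (0.420 CPM per kb), and Lig4 the lowest in TBI libraries (0.576 CPM per kb).

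The other homologous recombination members had positive log2 fold changes that did not pass. Exo1, a resection nuclease that also serves mismatch repair, had 9.55, 12.8 and 13.5 CPM in TBI libraries, against 8.03 and 7.34 CPM in untreated libraries, with no overlap (log2 fold change 0.64 ± 0.28, SE, edgeR adjusted p = 0.149). It passed without TBI replicate 1 (log2 fold change 0.77, adjusted p = 0.0439). Xrcc2, which acts in strand exchange, stood at 12.8 CPM in TBI replicate 3 but at 4.78 and 3.80 CPM in TBI replicates 1 and 2, against 5.44 and 4.43 CPM in untreated libraries. The remaining members were Rad51ap1, a cofactor of strand exchange, Rad54l, a motor of strand exchange, and Blm, a helicase that dissolves joined molecules. They overlapped between the groups, with log2 fold changes of 0.39 ± 0.28, 0.21 ± 0.25 and 0.28 ± 0.39 (SE). Of 22 other recombination genes, 1 rose, Rad51b, which acts in strand exchange, at 12.3, 6.97 and 4.32 CPM in TBI libraries, against 1.85 and 1.65 CPM in untreated libraries (log2 fold change 2.15 ± 0.55, SE, edgeR adjusted p = 0.024). That call was lost by limma-voom (adjusted p = 0.0788), which called 0 of the 22, and by edgeR without untreated replicate 1 (adjusted p = 0.131) or untreated replicate 2 (0.158).

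**Figure D2:**
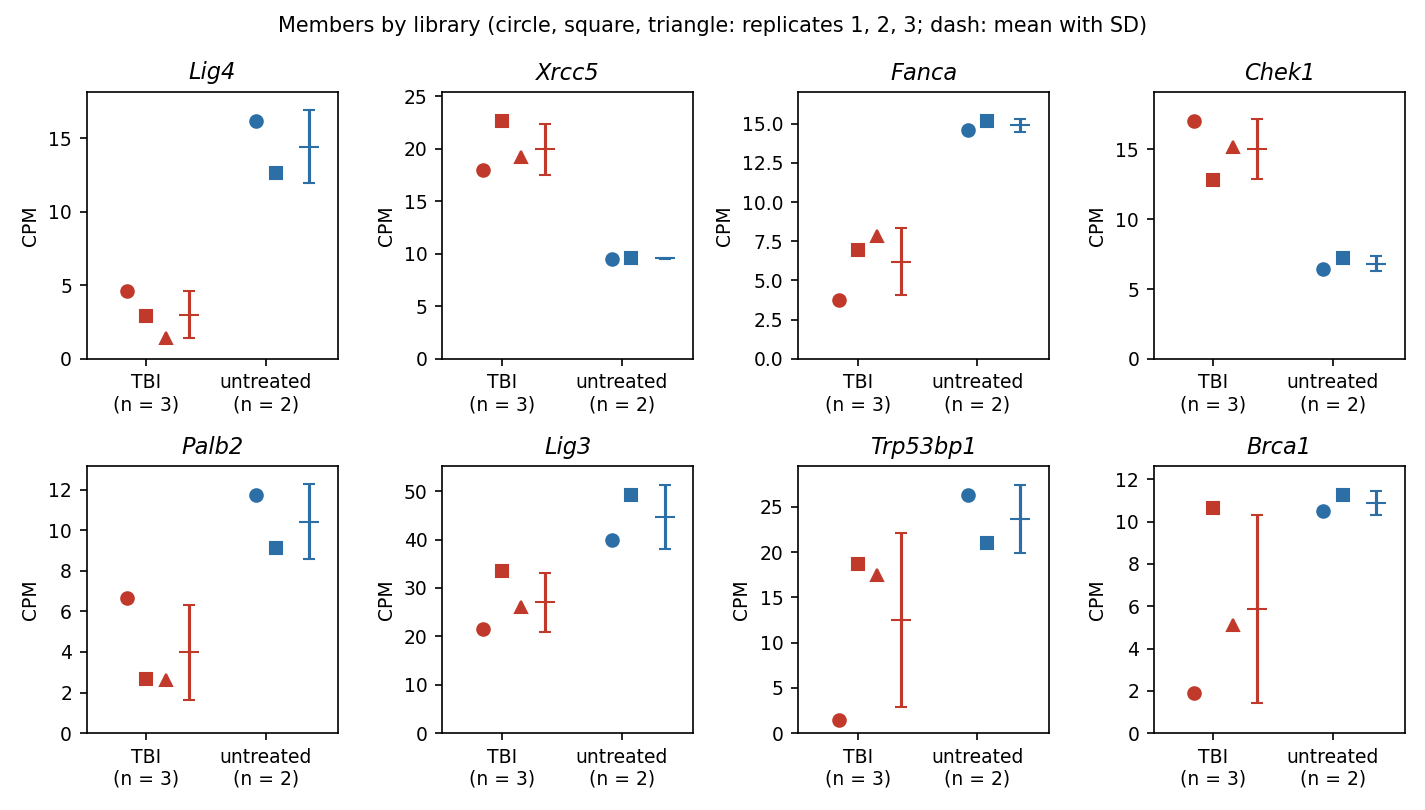
Normalised level in CPM (linear axes from 0) of 8 genes in each TBI library, left, and each untreated library, right, with the group mean and SD beside the points. Lig4 and Fanca lie lower and Xrcc5 and Chek1 higher in every TBI library, while TBI replicate 1 is the lowest library for Trp53bp1 and for Brca1.

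In the Fanconi pathway, 1 of 3 members passed. Fanca had 3.76, 6.97 and 7.85 CPM in TBI libraries, against 14.6 and 15.2 CPM in untreated libraries, and no TBI library reached an untreated one. The mean was 6.19 ± 2.15 CPM (SD, n = 3) after TBI and 14.9 ± 0.431 CPM (SD, n = 2) in untreated cells, a log2 fold change of -1.26 ± 0.34 (SE, 95% interval -2.04 to -0.48, edgeR adjusted p = 0.03). The call was lost without untreated replicate 1 (adjusted p = 0.169), untreated replicate 2 (0.195) or TBI replicate 2 (0.0593). Of its exon bases, 8.62% overlap Zfp276 on the opposite strand, and whether the counting used strand is not given in the sources used here, so reads of the 2 genes there cannot be told apart. Fancd2 and Fanci encode the pair of proteins that the core complex modifies at a crosslink. They overlapped between the groups, with log2 fold changes of -0.40 ± 0.43 and -0.03 ± 0.28 (SE). Fancd2 had 3.62, 7.10 and 9.68 CPM in TBI libraries, against 7.41 and 10.6 CPM in untreated libraries. Among 13 other genes of the pathway edgeR called 0, with 2 at an unadjusted p under 0.05, and DESeq2 and limma-voom called 1 each.

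Parp1, Xrcc1 and Apex1, of base excision and single-strand break repair, were among the most abundant of the 35 genes per kilobase of exon. Per kilobase of exon, Parp1, the sensor of strand breaks, led both groups with 33.1 CPM per kb in TBI and 36.2 CPM per kb in untreated libraries. It had 95.8, 135 and 154 CPM in TBI libraries, against 133 and 147 CPM in untreated libraries, and the groups overlapped (log2 fold change -0.13 ± 0.20, SE, 95% interval -0.59 to 0.33, edgeR adjusted p = 0.691). Xrcc1, the scaffold that gathers the single-strand break factors, had 33.6, 40.7 and 37.4 CPM in TBI libraries, against 42.4 and 40.2 CPM in untreated libraries (log2 fold change -0.15 ± 0.18, SE). Ogg1, the glycosylase for oxidised guanine, and Apex1, the nuclease for sites that have lost a base, gave log2 fold changes of 0.16 ± 0.33 and 0.14 ± 0.22 (SE), with overlapping groups. Of the exon bases of Apex1, 70.8% overlap Pip4p1 on the opposite strand, so its level is uncertain.

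Lig3, the ligase that works with XRCC1, was the member of this class nearest the threshold. It had 21.4, 33.6 and 26.2 CPM in TBI libraries, against 39.9 and 49.2 CPM in untreated libraries. The groups did not overlap, with a log2 fold change of -0.72 ± 0.23 (SE, 95% interval -1.25 to -0.18, edgeR adjusted p = 0.0593). It passed by DESeq2 (adjusted p = 0.0378) and by limma-voom (0.0482), and by edgeR without TBI replicate 1 (0.0455) or TBI replicate 2 (0.0398). Rffl on the opposite strand overlaps 27.9% of its exon bases. Among the 5 base excision members edgeR called 0, with 1 at an unadjusted p under 0.05, and each of DESeq2 and limma-voom called 1 (Lig3). Of 15 other genes of the class, 13 were tested and edgeR called 0, with 2 at an unadjusted p under 0.05, 0 by DESeq2 and 1 by limma-voom. Polb, the repair polymerase that fills the gap, gave 0.18 ± 0.20 on the log2 scale (SE, adjusted p = 0.578 by edgeR).

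Nucleotide excision repair was represented by its damage sensors Xpc and Ddb2 and by Ercc1, the partner of the XPF nuclease. By edgeR, DESeq2 and limma-voom 0 of the 3 were called, and 0 had an unadjusted p under 0.05. Xpc had 11.9, 17.9 and 19.6 CPM in TBI libraries, against 23.1 and 22.0 CPM in untreated libraries, all TBI values lying below (log2 fold change -0.45 ± 0.26, SE, edgeR adjusted p = 0.251). Ddb2, which is also a known target of p53 in human cells, had 8.39, 4.31 and 6.54 CPM in TBI libraries, against 3.46 and 3.92 CPM in untreated libraries, all TBI values lying above. Its log2 fold change of 0.79 ± 0.43 (SE, 95% interval -0.18 to 1.77, edgeR adjusted p = 0.223) did not pass, and 26.7% of its exon bases overlap Acp2 on the opposite strand. Ercc1 gave 0.23 ± 0.22 (SE) with overlapping groups. Of 22 other genes of the class 1 fell, the transcription-coupled repair factor Ercc6, with 3.62, 6.34 and 3.66 CPM in TBI libraries, against 12.9 and 12.3 CPM in untreated libraries (log2 fold change -1.46 ± 0.35, SE, edgeR adjusted p = 0.018). Without untreated replicate 1 its adjusted p was 0.153, and without untreated replicate 2 it was 0.132.

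Mismatch repair had a single member, Msh6, which takes part in finding mispaired bases. It had 32.6, 49.4 and 50.2 CPM in TBI libraries, against 55.8 and 58.5 CPM in untreated libraries. All TBI values lay below, TBI replicate 1 farthest, and the log2 fold change was -0.37 ± 0.22 (SE, 95% interval -0.87 to 0.13, edgeR adjusted p = 0.26). Among the 12 other mismatch repair genes edgeR called 0, with 3 at an unadjusted p under 0.05, 1 by DESeq2 and 0 by limma-voom.

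Set side by side, the repair classes gave 2 calls of 7 members in end joining (1 higher, 1 lower, median log2 fold change 0.03), 0 of 8 in homologous recombination (median 0.33), 1 of 3 in the Fanconi pathway (lower, median -0.40), 0 of 8 in base and nucleotide excision together (median 0.01) and 0 of 1 in mismatch repair (-0.37). Among all tested genes 23.1% were called, and no class was tested against another. End joining members ran from -2.27 to 1.06, homologous recombination members from -1.40 to 0.64, and excision members from -0.72 to 0.79.

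Of the 8 damage signalling members, 1 passed. Chek1 had 17.1, 12.8 and 15.2 CPM in TBI libraries, against 6.43 and 7.22 CPM in untreated libraries, and the groups did not overlap. The mean was 15.0 ± 2.14 CPM (SD, n = 3) after TBI and 6.82 ± 0.559 CPM (SD, n = 2) in untreated cells, a log2 fold change of 1.14 ± 0.27 (SE, 95% interval 0.52 to 1.75, edgeR adjusted p = 0.0179). Its adjusted p was 0.185 without untreated replicate 1 and 0.132 without untreated replicate 2. Chek2, the kinase of the ATM branch, had 7.67, 5.197 and 9.02 CPM in TBI libraries, against 7.66 and 6.58 CPM in untreated libraries, with overlap (log2 fold change 0.03 ± 0.35, SE).

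Upstream of these kinases, Atm had 5.21, 9.76 and 15.4 CPM in TBI libraries, against 11 and 12.8 CPM in untreated libraries, so that the TBI values lay on both sides (log2 fold change -0.23 ± 0.42, SE). Atr had 8.68, 7.48 and 12.6 CPM in TBI libraries, against 13.1 and 13.3 CPM in untreated libraries, all below (log2 fold change -0.46 ± 0.29, SE, edgeR adjusted p = 0.301). The genes of the complex that tethers broken ends and recruits ATM gave no call. Nbn had 28.5, 27.6 and 29.8 CPM in TBI libraries, against 25.2 and 25.3 CPM in untreated libraries (log2 fold change 0.18 ± 0.19, SE). Mre11a, its nuclease, and Rad50, its tether, gave -0.05 ± 0.22 and 0.34 ± 0.27 (SE) with overlapping groups.

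Trp53bp1 encodes 53BP1, which shields broken ends from resection and so favours end joining. It had 1.45, 18.6 and 17.5 CPM in TBI libraries, against 26.3 and 21.0 CPM in untreated libraries, from 10, 147 and 134 counts in TBI libraries and 213 and 166 counts in untreated libraries. TBI replicate 1 was 12.9-fold lower than the highest TBI library, the widest range of any member. The log2 fold change was -0.91 ± 0.71 (SE, 95% interval -2.53 to 0.71, edgeR adjusted p = 0.401), and without TBI replicate 1 it was -0.39 (adjusted p = 0.177). Tubgcp4 on the opposite strand overlaps 22.1% of its exon bases. Of 20 other signalling genes 1 rose, Tipin, of the complex that protects replication forks, with 85.4, 73.1 and 70.0 CPM in TBI libraries, against 51.8 and 53.8 CPM in untreated libraries (log2 fold change 0.53 ± 0.16, SE, edgeR adjusted p = 0.0491). That value is close to the threshold, and the call was lost without untreated replicate 1, untreated replicate 2, TBI replicate 2 or TBI replicate 3 (adjusted p = 0.335, 0.284, 0.0938 and 0.0538).

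The members varied more among TBI libraries than among untreated ones. The coefficient of variation over the 3 TBI libraries had a median of 22.7% (range 3.84 to 76.7%), against 6.34% (0.309 to 27.1%) over the 2 untreated libraries. Over the whole table, the chi-square per gene between libraries was also larger for TBI pairs (9.80 to 27.6) than for the untreated pair (4.89). TBI replicate 1 was the lowest TBI library in 15 members, replicate 2 in 14 and replicate 3 in 6. TBI replicate 1 also differed from its group by transcript length over all genes. With the tested genes cut into 5 equal classes by their longest annotated transcript, in the shortest class (86 to 1764 bases), the median of log2(CPM + 1) in TBI replicate 1 minus the mean of TBI replicates 2 and 3 was 0.34, and in the longest class (5004 to 123179 bases) it was -0.31. The same medians for TBI replicate 2 minus 3 were 0.08 and -0.05, and for untreated replicate 1 minus 2 they were 0.02 and -0.02.

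Repair genes are long, and 13 of the 35 were in the longest class. Across the 35 genes, TBI replicate 1 minus the mean of the other TBI libraries had a Pearson correlation of -0.52 with log2 transcript length (Spearman -0.52), and the log2 fold change of TBI over untreated one of -0.36 (Spearman -0.42). These are descriptions across genes that share the same 5 libraries. The 13 members over 5000 bases had a median log2 fold change of -0.40, with 10 of 13 negative, and the 22 shorter ones a median of 0.17, with 7 of 22 negative. Over all genes the median log2 fold change of TBI over untreated in the shortest and longest classes was 0.26 and -0.27. In the same classes, mean log2(CPM + 1) of TBI replicates 2 and 3 minus that of untreated libraries had medians of 0.11 and -0.17. The measures differ, so the effect of leaving out TBI replicate 1 on these medians was not tested. Without TBI replicate 1, 7 of the 35 genes passed (Xrcc5, Chek1 and Exo1 higher, Lig4, Fanca, Palb2 and Lig3 lower), against 32.6% of all tested genes. With the trend with length removed in every library, a setting chosen after seeing the data, 5 passed (Xrcc5, Chek1 and Exo1 higher, Lig4 and Fanca lower), against 25.2% of all tested genes. Without untreated replicate 1 the median log2 fold change was -0.02 over the members and 0.00 over all tested genes. Without untreated replicate 2 it was 0.03 and 0.01. Both fits leave only 1 untreated library, and fewer genes were called in them, among the members and over the whole table. The part of transcript length in the members' fold changes was otherwise not tested.

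**Figure D3:**
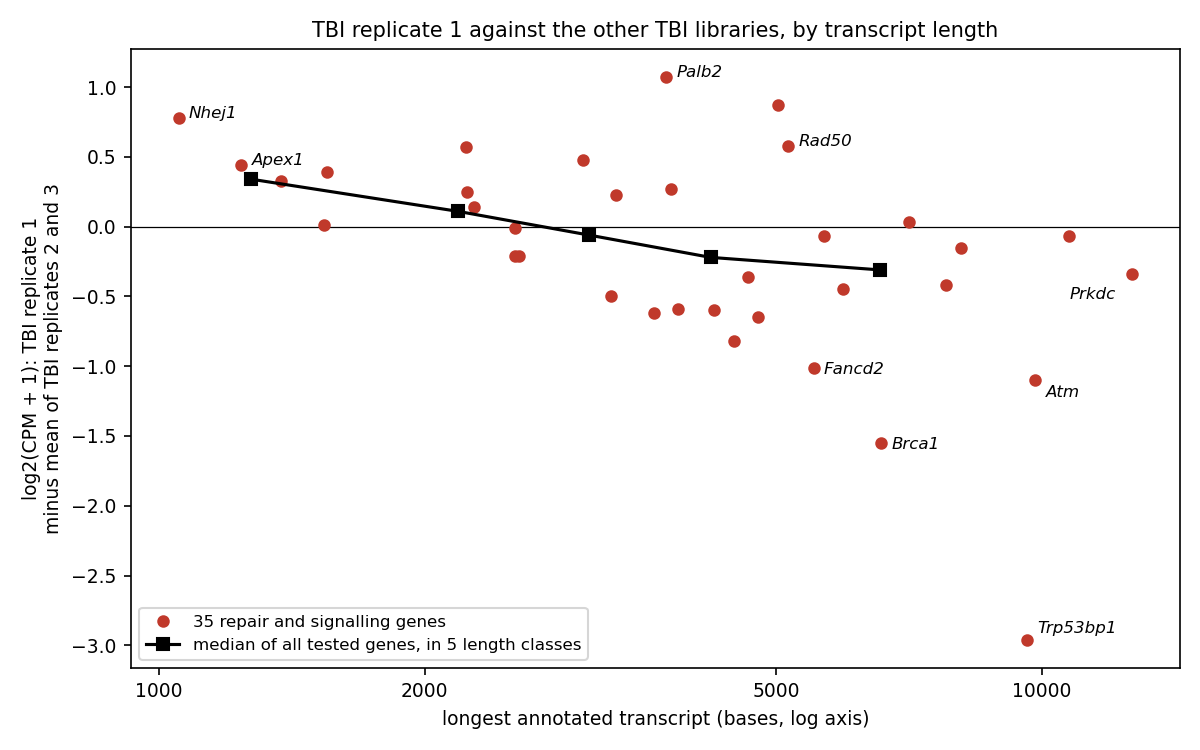
Difference in log2(CPM + 1) between TBI replicate 1 and the mean of TBI replicates 2 and 3 (vertical axis) against the longest annotated transcript in bases (log axis); circles are the 35 genes, squares the medians of all tested genes in 5 length classes. The squares run from 0.34 in the shortest class to -0.31 in the longest, and Trp53bp1, Brca1, Atm and Fancd2 lie lowest.

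Outside the 35 genes, 124 further repair and signalling genes were listed and 122 tested. Of these, 3 rose (Tipin, Rad51b and Mgmt) and 2 fell (Dntt and Ercc6), which is 4.10%, with a median log2 fold change of -0.07. Mgmt, which removes alkyl groups from guanine directly, had 16.4, 14.7 and 12.6 CPM in TBI libraries, against 3.21 and 2.41 CPM in untreated libraries (log2 fold change 2.36 ± 0.32, SE, edgeR adjusted p = 0.00111). For Mgmt every TBI library lay above both untreated libraries. Of 10 genes in translesion synthesis and direct reversal, edgeR and DESeq2 called 1 and limma-voom 2.

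The list of p53 and its targets held more calls: 11 of 23 genes rose, 3 fell and 9 failed the test. Among all tested genes 13.3% were higher and 9.79% lower. The median change of the list was 0.75 on the log2 scale. The part of the shifts in cell markers in these values was not tested. Cdkn1a, the p21 inhibitor of cyclin-dependent kinases, had 1101, 1057 and 946 CPM in TBI libraries, against 162 and 139 CPM in untreated libraries (log2 fold change 2.78 ± 0.15, SE, edgeR adjusted p = 9.17e-06). Phlda3, an inhibitor of AKT signalling, had 102, 79.4 and 79.0 CPM in TBI libraries, against 4.94 and 4.05 CPM in untreated libraries (log2 fold change 4.26 ± 0.24, SE, edgeR adjusted p = 1.28e-05). Mdm2, the ligase that degrades p53, had 182, 321 and 312 CPM in TBI libraries, against 79.5 and 85.1 CPM in untreated libraries. In these 3 genes every TBI library lay above both untreated libraries. Over the list this held for 12 genes, with every TBI library below in 4 and overlap in 7. Of all tested genes 56.1% did not overlap. Ccng1 and the death effector Bax rose by 1.52 ± 0.16 and 1.35 ± 0.17 (log2, SE). Trp53inp1, Sesn2 and Pmaip1 fell, with log2 fold changes of -1.32 ± 0.24, -0.83 ± 0.17 and -0.60 ± 0.13 (SE). The Sesn2 call was lost without untreated replicate 2 (adjusted p = 0.148), and the Pmaip1 call without untreated replicate 1 (0.152) or untreated replicate 2 (0.0845). Trp53 itself had 121, 101 and 98.2 CPM in TBI libraries, against 120 and 115 CPM in untreated libraries (log2 fold change -0.14 ± 0.15, SE, edgeR adjusted p = 0.542).

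Many recombination and signalling genes are known to be transcribed mainly in dividing cells, so a proliferation list was set beside them. Of its 24 genes 1 passed, Mki67, a marker of cycling cells, with 41.0, 29.4 and 35.2 CPM in TBI libraries, against 60.8 and 59.0 CPM in untreated libraries (log2 fold change -0.77 ± 0.19, SE, edgeR adjusted p = 0.0216). Its call was lost without untreated replicate 1, untreated replicate 2, TBI replicate 2 or TBI replicate 3 (adjusted p = 0.182, 0.157, 0.0632 and 0.0542). The summed level of the list was 2492, 2354 and 2684 CPM in TBI libraries, against 2220 and 2228 CPM in untreated libraries, and its median log2 fold change was 0.16. The sum thus lay higher in every TBI library while Mki67 lay lower. In 9 of the 24 genes every TBI library lay above both untreated libraries, and in 10 the groups overlapped. In the other 5, among them Mki67 and Top2a, every TBI library lay below. Over all tested genes 56.1% did not overlap. The part of cycling cells in the repair genes' values was not tested.

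**Figure D4:**
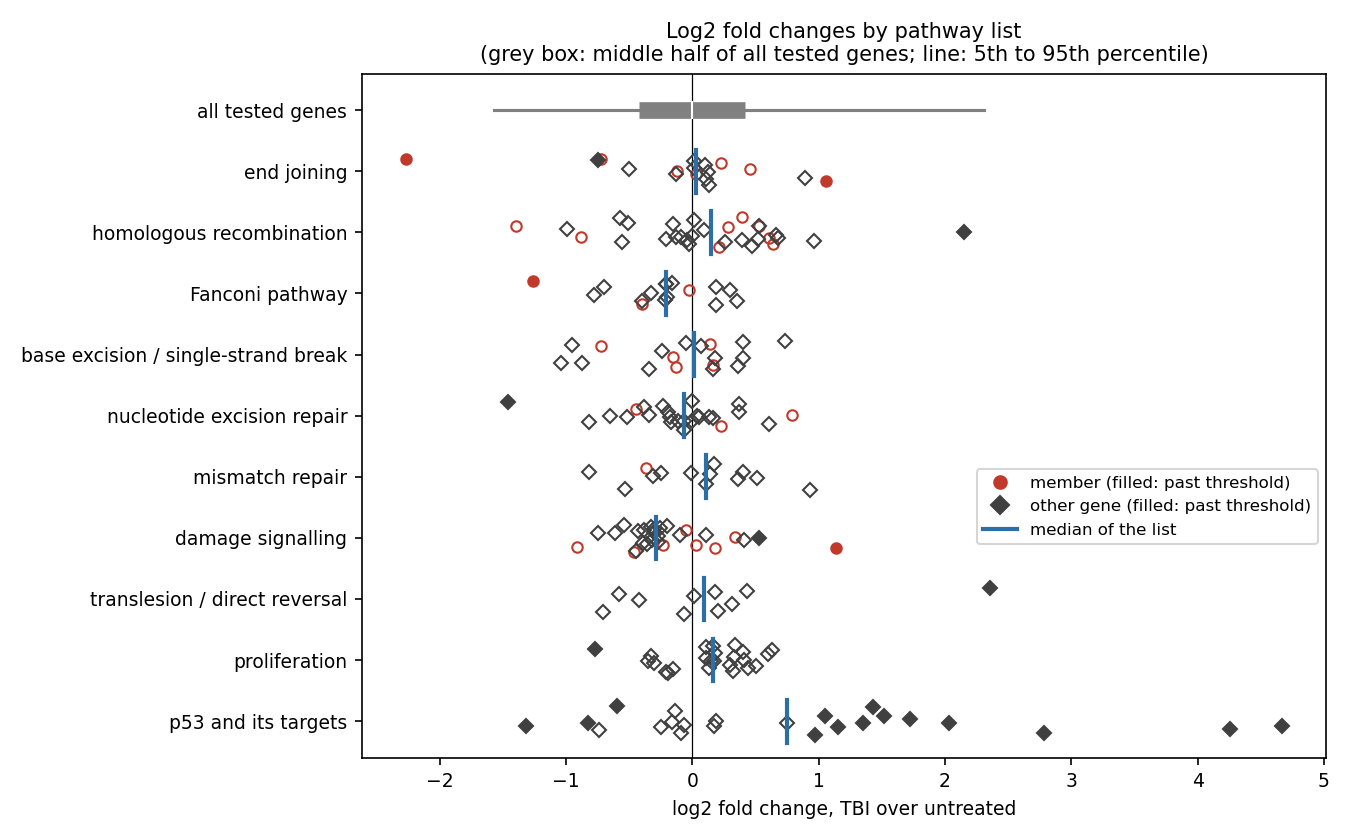
Log2 fold change of TBI over untreated for each listed gene, by pathway, with a box for all tested genes; filled points passed an adjusted p of 0.05. Repair lists lie around 0 with few filled points, while 11 of the 23 genes of the p53 list are filled above 0 and 3 below it. Among all tested genes 23.1% were called.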

How the data were processed

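RNA from the sorted cells was amplified with SMART-Seq v4 before sequencing, as the labels' protocols state. The authors deposited raw read counts per gene for 5 libraries. The submitters' processing notes name STAR 2.5.2a, featureCounts 1.6.0 and edgeR, with build mm10; annotation and strand setting are not given in the sources used here. Rows whose symbols a spreadsheet had turned into dates (23, holding 0.221% of counts) could not be named and were kept.

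The counts were tested with edgeR 4.0.16 (R 4.3.3): genes kept by filterByExpr (minimum count 10, total 15), TMM scaling, the quasi-likelihood F-test on group, and Benjamini-Hochberg adjustment over 12046 genes at 0.05. CPM used TMM-scaled library sizes; a standard error is the log2 fold change over the square root of F. Depth limits low genes, and intervals rest on 3 and 2 libraries. Alternatives included DESeq2 1.42.0 and limma 3.58.1 (voom), other scalings and filters, and leaving out each library. The code was checked on simulated counts. Exon and transcript lengths came from GENCODE vM21, and promoters from RefSeq on GRCm38.p6.

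The members and lists were chosen with earlier results of these data known. All 35 members may be named; of other listed genes, those past the threshold (at most 4 per direction and list) and fixed partners of members. Some partner genes are not reported here.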

Additional observations from a re-analysis of the deposited data

How the results depend on the processing

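The other listed pathway genes here are 171 genes outside the members, 169 of them tested, and include the p53 and proliferation lists. By the main edgeR test 11.8% of those tested were called, against 23.1% of all tested genes. The p53 list gave 11 of their higher and 3 of their lower calls, and the proliferation list 1 lower call. The 122 other repair and signalling genes tested gave 3 higher and 2 lower. Over all tested genes, 1599 were higher and 1179 lower after TBI. Leaving out each library in turn gave 810 to 2148 higher and 423 to 1780 lower, and among the 35 members (2 higher, 2 lower) 0 to 3 higher and 0 to 4 lower. Of the other listed pathway genes (14 higher, 6 lower) it gave 9 to 20 higher and 1 to 16 lower. Scaling by library size alone moved the median log2 fold change of all genes to -0.23 and gave 1241 higher and 2129 lower genes in all, 2 higher and 5 lower members, and 12 higher and 21 lower pathway genes; changes under it are relative to that shift. DESeq2's Wald test and limma-voom each called 4 lower members, adding Palb2 and Lig3. In either direction each called 17.1% of the members, against 26.1% of all tested genes by DESeq2 and 23% by limma-voom. With the trend with transcript length removed, chosen after seeing the data, 10 pathway genes were lower. Chek1, Fanca, Lig4 and Xrcc5 kept their calls under every alternative that used all 5 libraries. Over the 57 named genes and all alternatives, 760 of 854 values kept direction and call, 31 lost a call, 17 gained one and 46 of genes with no call changed sign; no called value changed sign.

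The replicate numbers did not pair the samples (correlations of deviations -0.01 to 0.01). With the number as a replicate block, 1493 genes were higher and 1284 lower, the same 4 members were called (2 higher, 2 lower), and 14 pathway genes were higher and 7 lower; the Tipin call was lost (adjusted p = 0.0762).

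The main limits are 2 untreated libraries, the spread of TBI replicate 1 with transcript length, and low counts: Lig4 rested on 11 to 32 counts in TBI libraries and Trp53bp1 on 10 in TBI replicate 1. Leaving out an untreated library also leaves fewer samples, and the cause of the calls lost there was not tested.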
